A study of Mus musculus with 6 samples.

Results

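The ratio of PKM2 crosslinks to ribosome footprints was measured for every message in mouse E14 embryonic stem cells, to find which messages carried many or few PKM2 contacts for the ribosomes on them in control cells. Pyruvate kinase M2 (PKM2) was tagged with FLAG and HA in 2 FAST-iCLIP replicates, which received a UV dose of 0.35 J per cm2, were recovered with anti-FLAG and anti-HA beads, and given no siRNA. The footprints came from 1 library of ribosome-protected fragments (RPF) of wild-type E14 cells treated for 36 h with 20 nM of a non-targeting siRNA pool (siCtrl) and for 2 min with cycloheximide at 100 µg per ml. All cells grew on gelatin in serum medium with LIF. The 2 sides of the ratio therefore came from different cell populations, 1 tagged and 1 transfected, and from different assays. These 3 libraries were taken from a series of 6, and the siCtrl RNA library was used beside them to take the ratio apart. The RNA and RPF libraries of cells given siRNA against PKM (siPKM, 20 nM for 36 h) served for a knockdown comparison and as an alternative denominator. They had the same cycloheximide treatment, and all siRNA-treated cells were passaged 16 h before harvest. The members were all 6535 rows of the deposited table, out of 6535, with 6532 gene symbols. For each row the reverse transcription stops on the mature transcript in each CLIP replicate were scaled to that replicate's sum and divided by the control footprints in the coding sequence (CDS), scaled to their sum. The log2 of this quotient is called stops per footprint below. All CDS counts leave out the first 15 and last 5 codons.

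Pyruvate kinase M makes pyruvate and ATP in the last step of glycolysis, and the M2 form prevails in embryonic and proliferating cells. Like several other metabolic enzymes it has been found on ribosomes and RNA. In iCLIP, ultraviolet light joins a protein to the RNA it touches, and reverse transcriptase tends to stop next to the joined base, so stops mark contacts. Ribosome profiling sequences the stretch of message that a ribosome shields from nuclease, so footprints count ribosomes on coding sequence. Messages for secreted and membrane proteins are translated by ribosomes bound to the endoplasmic reticulum (ER), and those for cytosolic and nuclear proteins mostly by free ribosomes.

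The CLIP replicates held 677701 and 670725 stops, with a median of 55 and 54 per message, and the RPF library held 15193841 CDS footprints, with a median of 838. Every message had at least 151 CDS reads in each RNA and RPF library, so messages below that level were not analysed here. Of 12 embryonic stem cell markers 11 were in the table, among them Pou5f1, Sox2, Esrrb and Zfp42, with a summed level of 7340 CPM (counts scaled to the library total) in siCtrl RNA. The 3 trophoblast, 2 primitive endoderm, 1 fibroblast and 3 neural markers in the table, of 6, 6, 4 and 4 listed, summed to 77.1, 134, 200 and 154 CPM. These sums cover fewer genes. The median per marker was 555 CPM for the stem cell markers and 17.4, 66.9, 200 and 47.8 CPM for the others in that order.

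Stops per footprint spread over several orders of magnitude. The middle of the distribution, from the 25th to the 75th percentile, ran from -0.73 to 1.43, and the extremes were -10.27 and 6.21. The median message stood at 0.36 and not at 0, and at 0.23 when ribosomal protein messages were left out of the sums used for scaling. At least 4-fold above footprints in both replicates were 855 messages (13.1% of all), and at least 4-fold below in both were 347 (5.31%). When the ratios were instead set relative to the median message, the counts were 576 and 538. The RPF side had 1 library, so no test was run and no p-value is given. The SD of the 2 CLIP replicates and 95% counting intervals are given in its place.

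The 2 CLIP replicates gave nearly the same order of messages. Across messages, which are not independent replicates and share the footprint denominator, the replicates' values correlated at 0.96 (Pearson) and 0.95 (Spearman). The median SD between replicates was 0.17, from 0.33 in the quartile of messages with the fewest stops to 0.10 in the quartile with the most. The difference between replicates was 1.98 times the counting variance (chi-square per degree of freedom over 6182 messages with at least 20 stops), so the counting intervals are too narrow. Past the 4-fold line in replicate 1 alone were 142 higher and 138 lower messages, in replicate 2 alone 96 and 89, and 0 were higher in one replicate and lower in the other. Just inside the upper line stood Fancg, at 2.00 and 2.41 in replicates 1 and 2, and Phip, at 2.00 and 2.17, and just outside stood Nipbl, at 2.21 and 1.998. At the lower line Eif3b stood just inside, at -2.03 and -2.003, and Atp6v1f just outside, at -2.27 and -1.9998. No label ties the replicates to different cultures, and the spread between them may be purely technical.

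**Figure D1:**
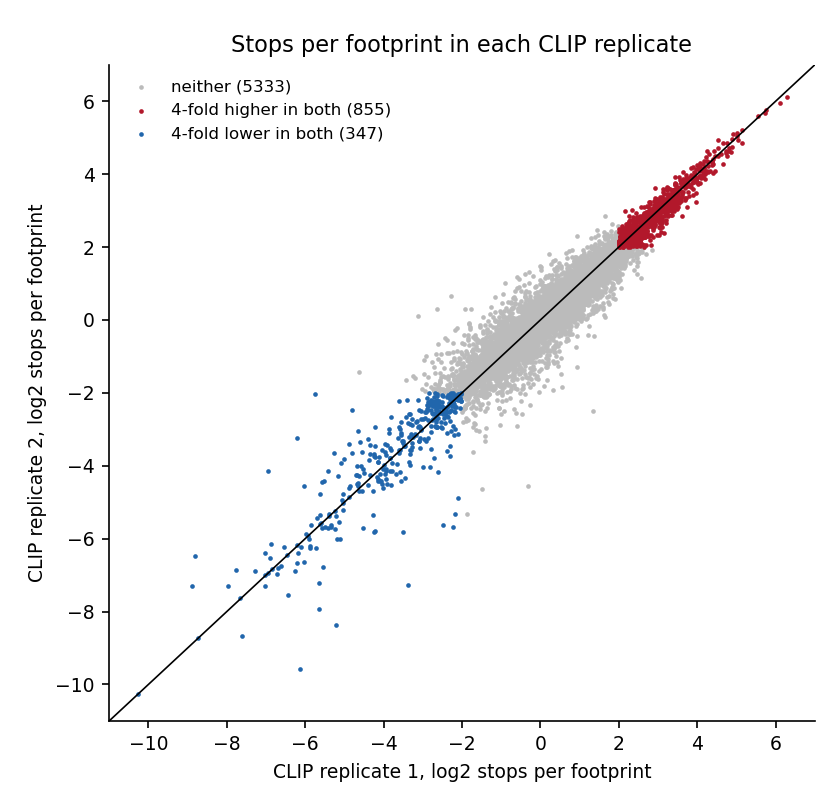
Log2 stops per footprint of each message in CLIP replicate 1 (x axis) and replicate 2 (y axis), with the line of equality. Messages at least 4-fold higher (855, red) and lower (347, blue) in both replicates lie along the line, and the scatter widens toward the low end, where messages have few stops.

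The message with the most stops per footprint was Spnb2 (Sptbn1), which encodes beta spectrin of the membrane skeleton. It had 1135 and 994 stops in the 2 replicates against 324 footprints, a value of 6.21 ± 0.12 (SD, n = 2; counting interval 6.04 to 6.38), or 73.8-fold above parity. Both replicates were thus far above the 4-fold line. Mllt6, a partner gene of MLL fusions in leukaemia, had 1001 and 891 stops and also 324 footprints, a value of 6.04 ± 0.11. These 2 messages had fewer footprints than the median message (838) and far more stops (55 and 54). B4galt6, a Golgi galactosyltransferase that makes lactosylceramide, followed at 5.76 ± 0.01 with 374 and 368 stops, and Rc3h2 (Roquin-2), an RNA-binding protein that takes messages to decay, at 5.57 ± 0.02 with 363 and 368.

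The rest of the top 15 encode proteins of several kinds. Trps1, a GATA-type repressor, stood at 5.17 ± 0.05, the INO80 chromatin remodeller subunit Ino80d at 5.07 ± 0.08, the zinc finger protein Zfp871 at 5.01 ± 0.13, and Smad7, the inhibitor of TGF-beta signalling, at 4.99 ± 0.06. The kinase Taok1, at 4.93 ± 0.04, had 1076 and 1111 stops against 809 footprints. Ubn2, a partner of the histone H3.3 chaperone HIRA, stood at 4.81 ± 0.06. Also among them were D730040F13Rik (Tmem245), a transmembrane protein, at 5.04 ± 0.03, Pigm, the first mannosyltransferase of the GPI anchor and an ER membrane protein, at 5.00 ± 0.20, the cytoskeletal linker Macf1 at 4.76 ± 0.07, and Iqgap1, a scaffold of the cell cortex, at 4.82 ± 0.10. In each message named here the replicate SD was at most 0.20, and the distance to the 4-fold line was above 2. These messages were picked for the highest lower counting limits of this same ratio, so that distance comes in part from the choice.

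**Figure D2:**
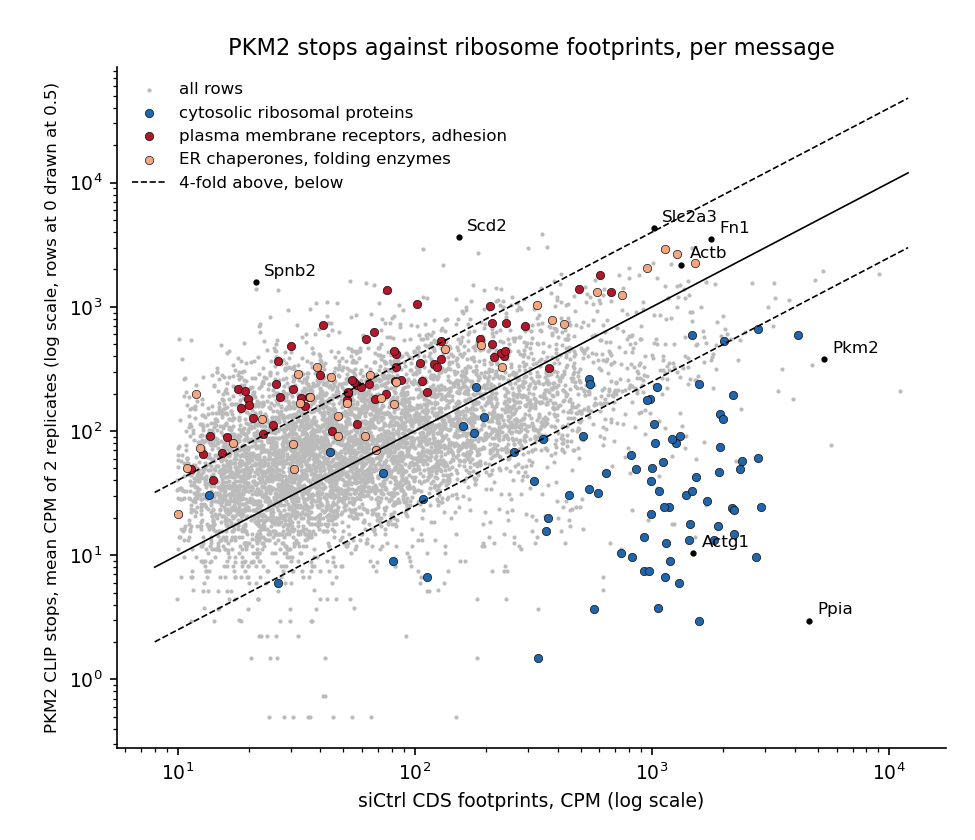
Mean CPM of stops in the 2 CLIP replicates (y axis, log scale) against CPM of siCtrl CDS footprints (x axis, log scale) for each message. The solid line is parity, the dashed lines are 4-fold above and below, black points are named messages and messages at 0 stops are drawn at 0.5; plasma membrane receptors (red) and ER folding enzymes (orange) lie mostly above parity and ribosomal proteins (blue) mostly below the lower dashed line.

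Stops per footprint can be split exactly into 3 terms on the log2 scale. They are stops per read of control RNA over the whole transcript, footprints per coding RNA read (a measure of ribosomes per message, which is subtracted), and whole-transcript RNA over coding RNA, called the noncoding RNA term. The last term is large for messages with many reads in untranslated regions. It also holds reads in the first 15 and last 5 codons, which the coding counts leave out. The higher messages had medians of 1.72, -0.56 and 0.45 in these terms, against 0.06, -0.18 and -0.06 for all messages. Messages chosen for a high ratio are shifted in its terms by that choice, so these values only describe how the ratio was made up. Stops per RNA read were above 0 in 829 of the 855 (96.96%, against 51.7% of all messages). Footprints per coding RNA read were below 0 in 630 (73.7%, against 60.3%), and the noncoding RNA term was above 0 in 620 (72.5%, against 45.6%). The lower messages had medians of -3.29, 0.04 and -0.22, so that stops per RNA read lay farthest from the value of all messages. Stops per RNA read were below 0 in 346 of 347. Across all messages, stops per footprint correlated (Pearson) at 0.84 with stops per RNA read, at -0.24 with footprints per coding RNA read and at 0.35 with the noncoding RNA term, which share libraries with it.

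Single messages reached the top by different terms. Spnb2 had 1.98 for stops per RNA read, but -4.64 for footprints per coding RNA read, so few of its RNA reads were matched by footprints. Some other giant cytoskeletal messages were also low in footprints per coding RNA read, with -3.50 for filamin A (Flna), -3.45 for Iqgap1, -2.89 for Macf1 and -2.65 for dystonin (Dst). Others of the same list were not, with -0.48 for Dync1h1, -0.27 for Utrn, 0.16 for Ank2, 0.43 for Tln1 and 0.67 for Myh9. Of the 855 higher messages, 59 were at least 4-fold down in this term, against 95 of all 6535, a difference that the choice of the 855 contributes to. In contrast, Ino80d, with 90.0% of its control RNA reads in the 3' UTR, reached 5.07 with footprints per coding RNA read of 0.64 and a noncoding RNA term of 2.81. Scd2, a fatty acid desaturase of the ER membrane, had 2520 and 2394 stops against 2324 footprints (4.57 ± 0.04), with terms of 2.94, 1.97 and 3.60. Lars2, the mitochondrial leucyl-tRNA synthetase, reached 4.73 ± 0.28 by stops per RNA read alone, at 4.83, with -0.19 and -0.29 for the other terms.

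**Figure D3:**
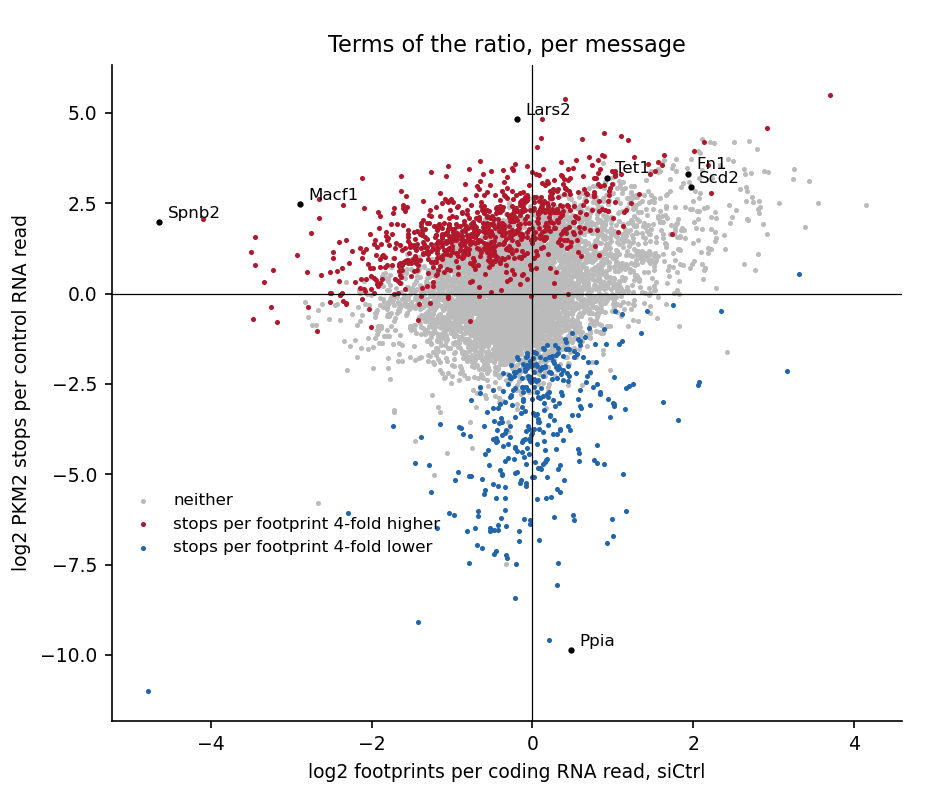
Log2 PKM2 stops per control RNA read (y axis) against log2 siCtrl footprints per coding RNA read (x axis) for each message. Higher messages (red) fill the upper left, with Spnb2 and Macf1 at the far left, and lower messages (blue) lie below the cloud over a narrow range of the x axis.

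Stops relative to RNA and stops relative to footprints overlapped in part. At least 4-fold above control RNA in both replicates were 522 messages, and 292 of them were also 4-fold above footprints, which is 55.9% of the first set and 34.2% of the second. At the low end 339 messages were 4-fold below RNA and 270 of them also below footprints, 79.6% and 77.8%. Of all messages 13.1% and 5.31% were above and below footprints, and the 2 ratios share the CLIP libraries. Some messages high over RNA lay under the 4-fold line over footprints. The fibronectin message Fn1, which had 2456 and 2250 stops, was 3.32 over RNA but 0.98 ± 0.08 over its 26853 footprints. The basement membrane proteoglycan Hspg2 was 4.22 over RNA and 1.02 ± 0.12 over footprints, and Mki67, a marker of cycling cells, 4.15 and 1.37 ± 0.11. Eif1a, an initiation factor, went the other way, at -0.08 over RNA and 3.92 over footprints, with a noncoding RNA term of 3.97.

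At the low end stood cyclophilin A (Ppia), a proline isomerase, with 2 stops in each replicate against 69397 footprints. Its value was -10.27 (counting interval -12.46 to -9.23). Of the 15 messages with the lowest upper limits, 12 were annotated as cytosolic ribosomal proteins. Rpl24 had 2 and 2 stops against 24014 footprints (-8.74), Rpl19 had 9 and 4 against 41614 (-8.14 ± 0.75), Rpl28 had 1 and 4 against 16017 (-8.10 ± 1.13) and Rpl3 had 18 and 15 against 43870 (-6.84 ± 0.17). The other 2 were Gm15450, a predicted gene, at -6.68 ± 0.09, and cytoplasmic gamma actin (Actg1), with 6 and 8 stops against 22689 footprints (-7.08 ± 0.28). The nearly identical protein beta actin (Actb) had 1385 and 1571 stops against 20153 footprints and stood at 0.72 ± 0.14. Both replicates of Actb lay above parity and both of Actg1 far below it.

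Low values moved with the presence of pseudogenes. In the RefSeq gene table of assembly GRCm38.p6, 251 messages (3.84%) had at least 1 pseudogene named after them, and this held for 122 of the 347 lower messages (35.2%) and for 12 of the 855 higher ones (1.40%). The median of messages with a named pseudogene was -2.16, and that of the others 0.40. Without them 225 lower messages were left, with a median of -2.96. The names undercount copies, since Ppia, Rpl24 and Actg1 had 0 by this rule. How reads with several matches were treated is not given in the sources used here, so the values of genes with near-identical copies are uncertain. Whether this set the low values was not tested. At 0 stops in both replicates were 9 messages. Taking 3 stops over both replicates as the limit that a count of 0 allows, the mitochondrially encoded mt-Nd4 (described in the table as chain 4L, so its identity is uncertain) was at least 66.7-fold lower in stops than in footprints, the ER cargo receptor Mia3 at least 29.5-fold, the purine salvage enzyme Hprt at least 24.4-fold and Mrpl48 at least 20.3-fold. A LINE-1 polyprotein row, a repeat with many copies, also had 0 stops, against 29136 control RNA reads.

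The messages of membrane and secreted proteins had many stops per footprint. Of 66 plasma membrane receptors and adhesion proteins, 30 were at least 4-fold higher and 0 lower (45.5%, against 13.1% of all messages), 65 lay above the median message, and the list median was 2.03, or 1.67 above the median message. Highest were the Wnt receptor Fzd5 at 4.17 ± 0.01, with 930 and 911 stops against 1154 footprints, its coreceptor Lrp6 at 4.12 ± 0.09, the BMP receptor Bmpr1a at 4.01 ± 0.23 and the insulin-like growth factor receptor Igf1r at 3.80 ± 0.12. The message with the most stops in the list, the giant cadherin Fat1, had 1280 and 1141 and stood at 1.57 ± 0.11. E-cadherin (Cdh1) stood at 0.97 ± 0.11, and the endocytic receptor Lrp2 was lowest, at -0.22 ± 0.27.

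Solute carriers outside Slc25 (65) had the highest list median, 2.18, with 37 higher (56.9%, against 13.1% of all messages) and 0 lower. The creatine transporter Slc6a8 led at 4.08 ± 0.10, with 403 and 361 stops against 509 footprints, followed by Slc35e1 at 4.03 ± 0.11 and the zinc transporter Slc30a7 at 3.71 ± 0.20, and the taurine transporter Slc6a6 stood at 3.40 ± 0.04. Its 3 lowest members were Slc4a1ap at -0.95, Slc7a6os at 0.21 and Slc9a3r1 at 0.44, whose symbols name them after a carrier although they are not transporters themselves. Both glucose transporters of the table were above parity, Slc2a3 with 2839 and 2975 stops against 15424 footprints (2.09 ± 0.06) and Slc2a1 with 1454 and 1295 against 12196 (1.34 ± 0.11). Numbered transmembrane proteins (52) had 19 higher (36.5%), 0 lower and a median of 1.61, from Tmem64 at 4.52 ± 0.15 to Tmem126b, an assembly factor of mitochondrial complex I, at -0.86 ± 0.14.

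ER folding enzymes stood above the median message in 33 of 34 cases, with 10 higher (29.4%, against 13.1% of all messages), 0 lower and a median of 1.37. Highest were the mannosidase-like degradation factors Edem1 (4.04 ± 0.21) and Edem3 (3.16 ± 0.07), which act on misfolded glycoproteins, and the thiol oxidoreductase Tmx3 (3.08 ± 0.06). The abundant chaperones lay closer to parity. The lectin Canx had 1996 and 1925 stops against 17211 footprints (1.36 ± 0.03), its soluble relative Calr 1317 and 1429 against 14461 (1.10 ± 0.09), the ER Hsp70 Hspa5 1770 and 1794 against 19390 (1.05 ± 0.02) and the ER Hsp90 Hsp90b1 1471 and 1563 against 23110 (0.56 ± 0.07). All 4 were above the median message in both replicates. The collagen chaperone Serpinh1 was lowest, at 0.06 ± 0.14.

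The ER translocation and N-glycosylation machinery (39) had 9 higher, 1 lower (23.1% and 2.56%, against 13.1% and 5.31% of all messages) and a median of 1.31. The translocon-associated subunit Ssr3 led at 3.31 ± 0.03, the oligosaccharyltransferase subunit Magt1 stood at 3.24 ± 0.10, and the channel subunit Sec61a1 at 1.87 ± 0.03. The small subunits of the same channel went the other way, Sec61b at -1.21 ± 0.11 with 19 and 21 stops and Sec61g at -3.59 ± 0.01 with 7 and 7 stops against 2031 footprints. The small SD of Sec61g comes from equal counts in the replicates and does not cover the counting error of so few stops. The signal recognition particle proteins Srp68 (-1.48 ± 0.28) and Srp9 (-0.80 ± 0.54), which are cytosolic, were also below the median message.

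Secreted and matrix proteins (32) had 7 higher (21.9%), 0 lower and a median of 1.11. The growth factors Bmp4 (169 and 188 stops, 163 footprints, 4.62 ± 0.12) and Fgf4 (561 and 579 stops, 650 footprints, 4.30 ± 0.04) and the Wnt antagonist Sfrp1 (3.69 ± 0.07) were highest. Lefty1, an inhibitor of Nodal, was lowest at -2.14 ± 0.34, and the collagens Col4a1 (-0.22 ± 0.38) and Col4a2 (-0.41 ± 0.67) were near parity. Lysosomal and Golgi proteins (47) had 6 higher (12.8%, near the 13.1% of all messages), 0 lower and a median of 1.18, from the Golgi mannosidase Man1a2 at 4.13 ± 0.19 to the vesicle coat receptor Tmed2 at -1.48 ± 0.72.

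Sterol and fatty acid synthesis genes (28) were split, with 9 higher and 3 lower (32.1% and 10.7%, against 13.1% and 5.31% of all messages) around a median of 1.31. After Scd2, the elongases Elovl6 (3.42 ± 0.01) and Elovl5 (2.58 ± 0.03) and the sterol sensor Scap (2.84 ± 0.00), membrane proteins of the ER, were high, and the sterol regulator Srebf2 stood at 2.22 ± 0.03. The 3 lower messages were Acaca, which makes malonyl-CoA, Fdps (-4.01 ± 0.10), which makes farnesyl diphosphate, and Idi1 (-4.35 ± 0.47), an isoprenoid isomerase, and the fatty acid synthase Fasn stood at -1.64 ± 0.03. The squalene synthase Fdft1, an ER membrane enzyme, at -0.92 ± 0.40, and the lanosterol synthase Lss, at -0.51 ± 0.20, were also below the median message.

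**Figure D4:**
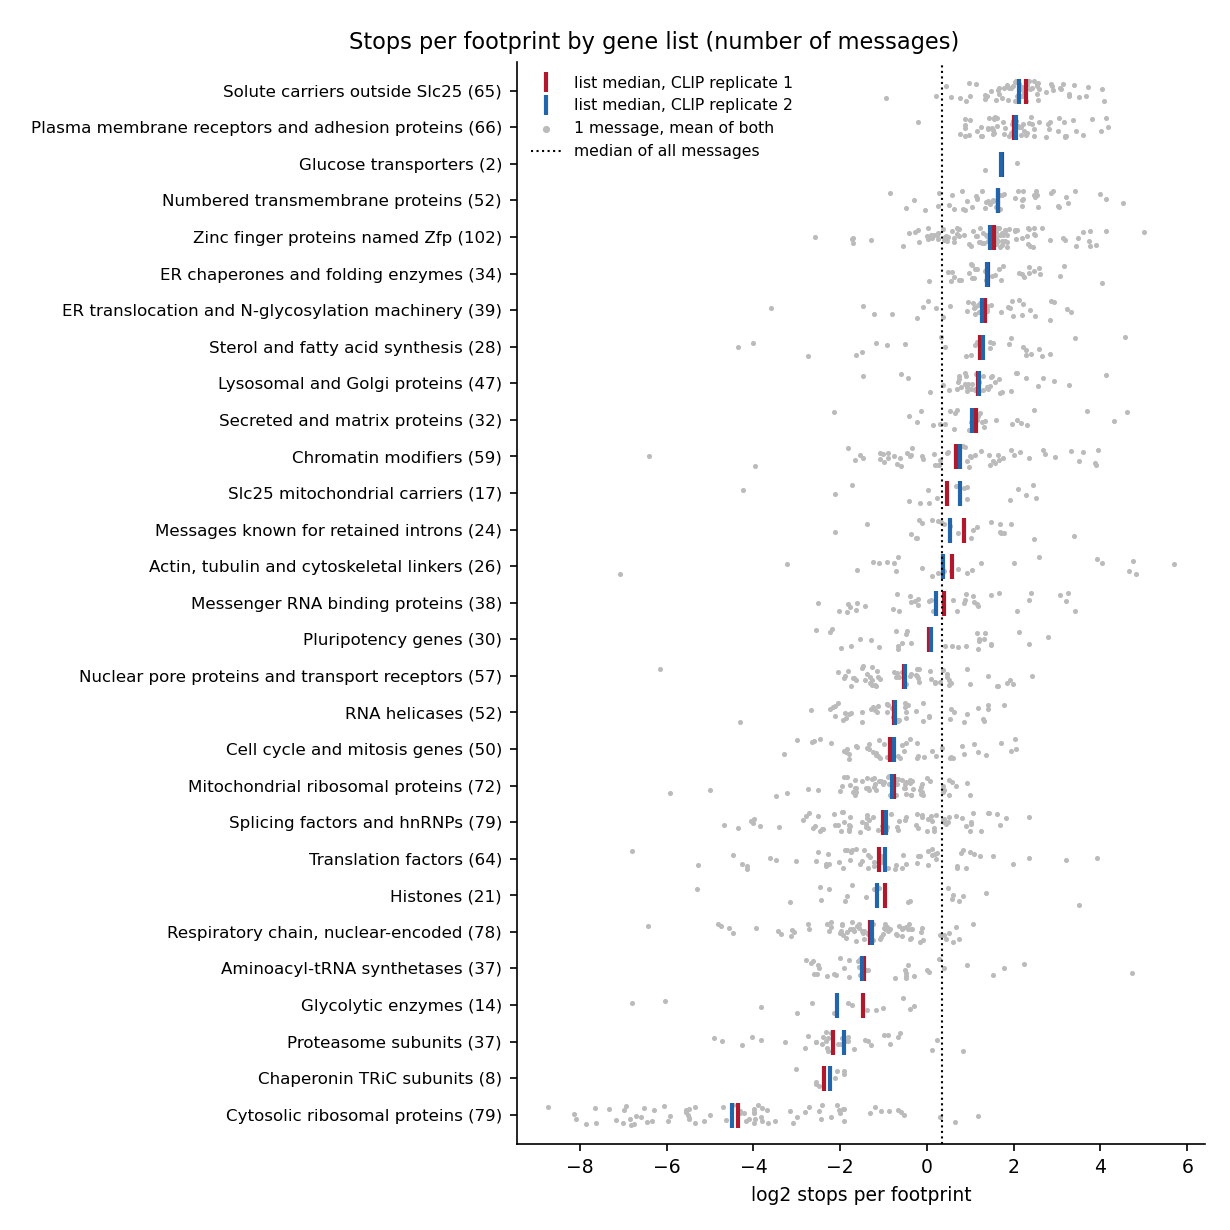
Log2 stops per footprint (x axis) of the messages in each gene list, ordered by median; grey points are messages, red and blue ticks are the list medians in CLIP replicates 1 and 2, and the dotted line is the median of all messages (0.36). Lists of membrane and secreted proteins lie at the top, with the zinc finger proteins named Zfp (median 1.49) among them, and cytosolic ribosomal proteins lie at the bottom. The replicates' ticks are farthest apart for glycolytic enzymes (-1.48 and -2.07).

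Mitochondrial proteins encoded in the nucleus were mostly below the median message. The respiratory chain (78) had 0 higher and 15 lower (19.2%, against 5.31% of all messages), with a median of -1.31. Without messages that have a named pseudogene, 7 of 68 were lower and the median was -1.07. The ATP synthase subunit c gene Atp5g2 was lowest at -6.42 ± 1.11 with 4 and 1 stops, while Atp5g3, a gene for the same mature protein, had 186 and 170 stops and stood at -1.05 ± 0.08. Atp5b, the catalytic subunit, had 472 and 468 stops against 48959 footprints (-2.21 ± 0.00). The highest, Atp5sl (1.07), and the third, Cox4nb (0.67), matched the list by symbol only and are not subunits. Mitochondrial ribosomal proteins (72) had 0 higher, 6 lower (8.33%, near the 5.31% of all messages) and a median of -0.81, from Mrps25 at 1.00 ± 0.10 to Mrpl48 at 0 stops. Slc25 carriers (17), which sit in the mitochondrial inner membrane, ranged from Slc25a36 at 2.52 ± 0.13 to the ADP/ATP carrier Slc25a5 at -4.24 ± 0.11. They had 3 higher, 2 lower (17.6% and 11.8%, against 13.1% and 5.31% of all messages) and a median of 0.66.

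Cytosolic ribosomal proteins had the fewest stops per footprint of the 29 lists. Of 79 messages 63 were at least 4-fold lower (79.7%, against 5.31% of all messages) and 0 higher, and the median was -4.21, which is 18.5-fold below parity. The highest was Rpl41 at 1.19 ± 0.25, whose coding sequence is very short and had 206 footprints outside the first 15 and last 5 codons. Rpl21 (0.64 ± 0.23), Rpl7l1 (0.31 ± 0.02), Rps26 (-0.53 ± 0.02) and Rps27l (-0.60 ± 0.34) came next. Among the members with the most stops were Rpl8, with 418 and 481 against 42460 footprints (-2.07 ± 0.15), Rpl4 (-2.80 ± 0.08) and Rps3 (-1.92 ± 0.02). A named pseudogene was present for 61 of the 79, among them the high members Rpl21, with 15, and Rpl7l1 and Rps26, with 1 each. Among the other 18 messages 11 were lower and the median was -2.98.

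Ribosomal protein messages are known to begin with a run of pyrimidines, the 5' terminal oligopyrimidine tract. Shown here are the bases around the start of 5 of the lowest ribosomal protein messages, picked for having a run of pyrimidines anywhere in the window. Beside them are 3 of the highest messages, not picked by a run, so the contrast between these 8 comes in part from the choice. RefSeq gives the bases in GRCm38.p6, from 5 before the annotated start to 20 after it. In Rpl11 and Rps13 the run lies toward the end of the window and not at the annotated start. Capitals mark a C followed by at least 5 bases that are C or T, searched on the transcribed strand only.
Rpl28, chr7:4792960-4792984, plus strand: tgtCTCTCTTTCCgtctccggccgc
Rpl11, chr4:136053374-136053398, minus strand: aggccacggggccggaagtCTCCCT
Rps13, chr7:116334171-116334195, minus strand: gtcggtgagtggcgtcaCTTCCTgt
Rpl35, chr2:39005112-39005136, minus strand: CTTTCCTCTTTCTCTCgaaccaggc
Rps6, chr4:86857348-86857372, minus strand: cgggCCTCTTTTTCgtgacgcctcc
Spnb2 (Sptbn1), chr11:30219753-30219777, minus strand: cacagaactctgaaaagtaactgat
Mllt6, chr11:97663407-97663431, plus strand: ggacgccgaggaggaggaaggagga
Rc3h2, chr2:37422884-37422908, minus strand: tccctgtagctcccgatggagtttg

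The run was in 28 of the 59 ribosomal protein genes with a window in the table (47.5%), where a gene counted if any of its windows had it. Counted in that way it was in 5260 of all 27025 genes (19.5%), and counted by window in 5573 of 32851 (16.96%). It was in 51 of 234 lower genes outside that list (21.8%), in 129 of 677 higher genes (19.1%) and in 1021 of 5285 genes of all messages (19.3%). Rpl28, Rpl35 and Rps6 had a run of 10, 16 and 10 bases, and stops per footprint of -8.10, -6.99 and -6.52. Annotated starts can lie some bases from the true ones, and a match is a description of these letters only.

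Other parts of the translation apparatus were also mostly low. Translation factors (64) had 3 higher, 15 lower (4.69% and 23.4%, against 13.1% and 5.31% of all messages) and a median of -1.05. The helicase Eif4a1 had 104 and 138 stops against 59758 footprints (-4.46 ± 0.30), the elongation factor subunit Eef1g stood at -5.29 ± 0.12, Eif3j at -6.79 ± 1.63 with 2 and 0 stops, and the elongation factor Eef2 at -1.72 ± 0.05. Of the 3 higher messages 1 was Eif1a, and the others were Eif2c1 (Ago1, 3.20 ± 0.05) and Eif2c2 (Ago2, 2.35 ± 0.13), which are Argonaute proteins of RNA silencing. Among aminoacyl-tRNA synthetases (37), with 2 higher, 8 lower (5.41% and 21.6%) and a median of -1.49, the mitochondrial enzymes Lars2, Vars2 (2.24 ± 0.18), Nars2 (1.77 ± 0.46), Mars2 (1.52 ± 0.03) and Hars2 (0.93 ± 0.15) were the 5 highest. The cytosolic leucyl enzyme Lars was lowest at -2.79 ± 0.16, with 103 and 87 stops against 14858 footprints.

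Complexes of the cytosol were low too. Proteasome subunits (37) had 0 higher, 15 lower (40.5%, against 5.31% of all messages) and a median of -2.05, with Psmb3 at -4.91 ± 0.19 and Psmb5 at -4.73 ± 0.62 at the bottom and Psma8, the testis form of an alpha subunit, highest at 0.84 ± 0.13. All 8 chaperonin subunits lay between -1.92 (Cct6a and Cct2) and -3.03 (Cct3), and 5 of them (62.5%) were lower in both replicates. Glycolytic enzymes (14) were all below the median message, with 6 lower (42.9%) and a median of -1.78. The Pkm message (Pkm2 in the table) itself had 249 and 259 stops against 80593 footprints, a value of -3.81 ± 0.05 (counting interval -3.94 to -3.69). Pgk1 stood at -6.04 ± 0.22 and Tpi1 at -2.998 ± 0.09. Pgam1 differed between the replicates, with 22 and 2 stops (-6.79 ± 2.23), and Aldoa was closest to parity at -0.29 ± 0.02. A named pseudogene was present for 5 of the 14, and the median of the other 9 was -1.38.

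The cytoskeleton list (26) spread widely around a median of 0.47, with 8 higher and 2 lower (30.8% and 7.69%, against 13.1% and 5.31% of all messages). Neither its giant linkers nor its small subunits kept to one side. Iqgap1, Macf1, Dst (1112 and 989 stops, 943 footprints, 4.65 ± 0.11) and Flna (1593 and 1337 stops, 2005 footprints, 4.04 ± 0.17) were among the 5 highest, all large actin or microtubule linkers or scaffolds. The 2 lower messages were Actg1 and the beta tubulin Tubb2c (-3.23 ± 0.01). Other giant proteins lay near or below the median message, among them the dynein heavy chain Dync1h1 (0.25 ± 0.14), utrophin (Utrn, 0.55 ± 0.15), the myosin Myh9 (-0.72 ± 0.11) and talin (Tln1, -1.61 ± 0.01). The small subunits Tuba1a (1.26 ± 0.03) and Actb lay above these, and the actin-severing protein Cfl1 stood at -1.25 ± 0.05.

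RNA-binding proteins spread around the median message. The list of messenger RNA binding proteins (38) had 7 higher and 1 lower (18.4% and 2.63%, against 13.1% and 5.31% of all messages), and its median of 0.25 turned to -0.11 relative to the median message. The GW182 proteins of microRNA silencing Tnrc6a (3.42 ± 0.04), Tnrc6b (3.25 ± 0.00) and Tnrc6c (2.39 ± 0.22) were among its 5 highest with Eif2c1 and Nufip2, which had 2016 and 2052 stops against 5462 footprints (3.07 ± 0.03). The stress granule protein G3bp1 (-2.03 ± 0.16) and the poly(A)-binding protein Pabpc4 (-2.51 ± 0.17) were lowest, while Pabpc1 stood at 0.90 ± 0.06. Splicing factors and hnRNPs (79) had 1 higher, 16 lower (1.27% and 20.3%) and a median of -0.94, from Srsf12 (Srek1) at 2.35 ± 0.09 to Hnrnpf at -4.67 ± 0.04. Messages known for retained introns (24) had 2 higher, 1 lower (8.33% and 4.17%, both under the shares of all messages) and a median of 0.62, with Leng8, at 3.38 ± 0.14, as their highest. RNA helicases (52) had 0 higher, 5 lower (9.62%) and a median of -0.77. Nuclear pore proteins and transport receptors (57) had 1 of each (1.75%) and a median of -0.49, with the membrane nucleoporin Pom121 highest at 2.42 ± 0.03.

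Nuclear proteins differed by class. Zinc finger proteins named Zfp (102) had 24 higher, 1 lower (23.5% and 0.980%) and a median of 1.49, with Zfp871, Zfp740 (4.13 ± 0.01) and Zfp459 (3.90 ± 0.15) highest. Chromatin modifiers (59) had 11 higher, 2 lower (18.6% and 3.39%, against 13.1% and 5.31% of all messages) and a median of 0.73. The methyltransferase Mll1 stood at 3.95 ± 0.08, the heterochromatin protein Cbx5 at 3.86 ± 0.08 with 1755 and 1884 stops, and the DNA demethylase Tet1 at 3.49 ± 0.06 with 2543 and 2672 stops against 5212 footprints. The 2 lower messages were Cbx3, a close relative of Cbx5, at -3.96 ± 0.26, and Hdac1 at -6.39 ± 0.22, with 4 and 5 stops. Both have a named pseudogene, so their low values are uncertain in the way given above. Histones (21) had 1 higher, 5 lower (4.76% and 23.8%) and a median of -1.14. The higher one, Hist1h4h at 3.50 ± 0.08, had 226 CDS footprints and turned to -0.65 when all footprints of the transcript were counted. Cell cycle genes (50) had 1 higher, 5 lower (2% and 10%) and a median of -0.77, with the replication clamp Pcna lowest at -3.29 ± 0.11. Pluripotency genes (30) had 3 higher and 2 lower (10.0% and 6.67%, near the 13.1% and 5.31% of all messages) and a median of 0.02, which was -0.34 relative to the median message. Tcfcp2l1 (2.80 ± 0.03), Trim71 (2.34 ± 0.04) and Tbx3 (2.12 ± 0.02) were higher, and Dppa5a (-2.56 ± 0.14) and Dppa4 (-2.19 ± 0.01) lower, while Sox2 stood at 1.20 ± 0.00.

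Message features moved with stops per footprint. Stops were counted over the whole transcript and footprints over the coding part. The messages were divided into 5 bins of 1307 by the share of control RNA reads in the 3' UTR. In the bin with the smallest share (up to 10.2%) the median was -0.47 and 4.28% were higher, and in the bin with the largest share (from 47.5%) the median was 1.40 and 32.1% were higher. The bins between had medians of -0.19, 0.24 and 0.63, in the order of their shares. Stops per control RNA read, whose denominator includes the untranslated regions, ran from -0.28 to 0.52 over the same bins. By the level of control coding RNA, the median ran from 1.02 in the lowest quartile to -0.76 in the highest, and 256 of the 347 lower messages lay in the highest quartile.

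Most lists kept their side when each message was set against the median of those in the same RNA quartile and 3' UTR bin. On that scale the median was 1.64 for plasma membrane proteins, 1.44 for solute carriers, 1.39 for secreted and matrix proteins, 1.29 for ER folding enzymes and 1.16 for ER translocation. Lysosomal and Golgi proteins stood at 0.85. Lists of other kinds reached similar values, with 0.95 for chromatin modifiers, 0.83 for the cytoskeleton list, 0.78 for Zfp proteins and 0.72 for messages known for retained introns. The lowest lists came closer to 0, as seen from their medians relative to the median message and then on this scale. Cytosolic ribosomal proteins went from -4.57 to -3.04, glycolytic enzymes from -2.13 to -1.62 and chaperonin subunits from -2.66 to -1.18. Proteasome subunits went from -2.40 to -0.95, the respiratory chain from -1.67 to -0.76 and mitochondrial ribosomal proteins from -1.17 to -1.07. The highest RNA quartile ran from 1663 to 87392 coding reads, so the most abundant messages were matched only roughly. Cytosolic ribosomal proteins and chaperonin subunits had medians of 21191 and 22927 control RNA reads over the whole transcript. Other low lists also came closer to 0. Relative to the median message and then on this scale, aminoacyl-tRNA synthetases went from -1.85 to -0.47, translation factors from -1.41 to -0.54, splicing factors from -1.30 to -0.45, cell cycle genes from -1.13 to -0.26, helicases from -1.12 to -0.25 and nuclear pore proteins from -0.85 to -0.16. Slc25 carriers changed sign, from 0.30 to -0.05, as did messenger RNA binding proteins, from -0.11 to 0.0010. Above 0 on this scale were 65 of 66 plasma membrane messages, 32 of 34 ER folding enzymes and 6 of 79 ribosomal proteins. Multiplying the stops by the CDS share of RNA reads, as a stand-in for stops within the coding part, gave 736 higher messages, of which 589 were among the 855, and 311 lower ones, of which 269 were among the 347.

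**Figure D5:**
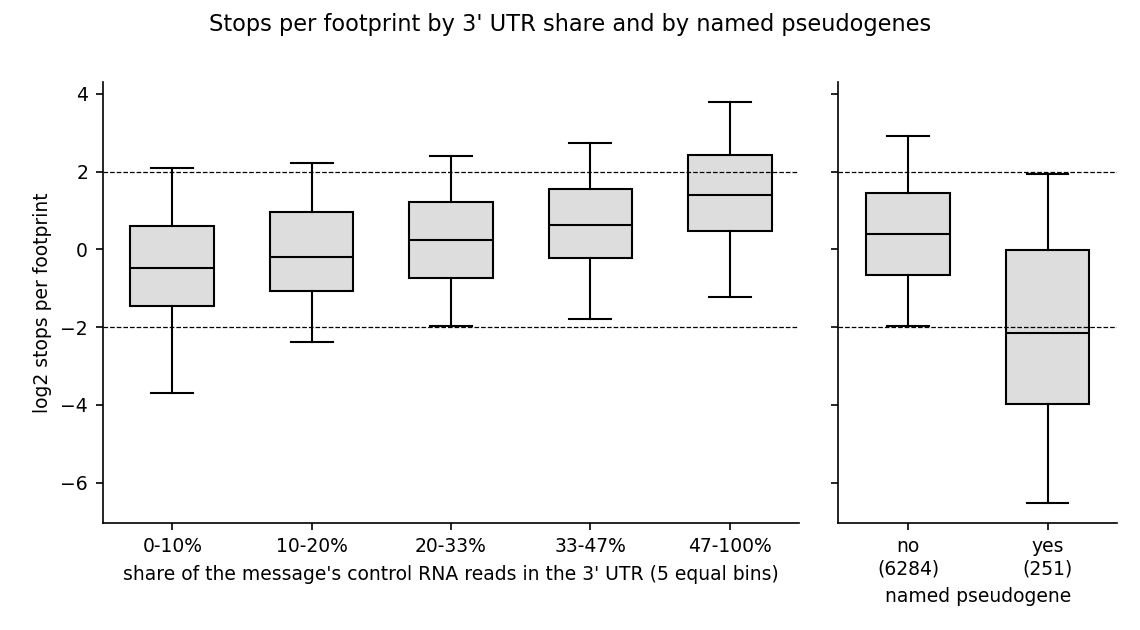
Log2 stops per footprint (y axis) by 5 bins of the share of control RNA reads in the 3' UTR (left) and by whether a pseudogene is named after the gene (right, number of messages). Boxes span the quartiles with the median, whiskers the 5th to 95th percentiles, and dashed lines are 4-fold; the median climbs from -0.47 to 1.40 over the bins and is -2.16 with a named pseudogene.

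Higher messages also had more of their footprints before the start codon. The median share of a message's footprints in the 5' UTR was 8.83% for the 855 higher messages, 3.85% for all and 1.74% for the 347 lower ones. Smad7 had 73.3%, B4galt6 52.0%, Taok1 30.7% and Rc3h2 27.5%, while Spnb2 had 0.302%. This share is partly fixed by the ratio itself, since CDS footprints are part of its denominator.

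After knockdown of PKM, in 1 library per siRNA and so with no replicate check, the RNA of these classes lay on opposite sides of the median message. The median log2 ratio of siPKM over siCtrl in coding RNA, relative to the median message, was 0.13 for the higher messages, with 610 of 855 above 0, and -0.13 for the lower ones, with 79 of 347 above 0. Of all 6535 messages 3267 were above 0. The RNA libraries were not used in choosing the classes, but the siCtrl footprints that were used came from the same treatment as the siCtrl RNA. The classes were also not matched for RNA level, and 256 of the 347 lower messages lay in the highest quartile of control coding RNA. In footprints, where the siCtrl library is shared with stops per footprint, the medians were 0.08 and -0.02.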

How the data were processed

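The authors deposited 1 table of raw counts. Per the file headers it holds RNA and RPF reads by transcript region and, by CLIP replicate, the stops on mature transcripts. The submitters' processing notes list cutadapt, Bowtie2 and mm9. Versions, the counting tool and the handling of strand and of reads with several matches are not given in the sources used here. A further 14 of its columns, all on a log scale, were not used.

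Each count was raised by 0.5 and divided by its column's sum, and log2 ratios were taken per CLIP replicate and averaged. A message was called at 4-fold in both replicates. Intervals (95%) came from exact Clopper-Pearson limits on summed stops, cover counting error only, and treat PCR reads as independent. A count of 0 allows 3 stops, or 4.43 and 4.47 CPM in replicates 1 and 2. RefSeq accessions of 6471 rows matched GRCm38.p6, used for names and start windows. Pseudogenes were counted where named after the gene with the ending -ps.

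Named messages are the 15 with the highest lower limit, the 15 with the lowest upper limit, Pkm, list extremes, list members with most stops, and those nearest the 4-fold lines. Other messages were named after their values were seen, and 2 that the rule picks are not reported here. The members, the 29 gene lists (by symbol, so a few members are not of the kind named) and the rules were chosen with earlier results of these data known. The pseudogene split, the split by RNA level and 3' UTR share and the start-window search were added after seeing the data. The ratio and intervals were tested on simulated data. Python 3.11.15, SciPy 1.17.1 and edgeR 4.0.16 (TMM factors only) were used.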

Additional observations from a re-analysis of the deposited data

How the results depend on the processing

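The counts of higher (855) and lower (347) messages depended mainly on the scaling, because the median message did not lie at parity. Relative to the median message there were 576 higher and 538 lower, and with edgeR's TMM factors 533 and 575. All of these higher messages were among the 855, and all 347 lower messages were among the lower ones in both settings. Among messages with at least 20 stops, 228 lower ones were left, since that alternative removes rows of few stops. Without messages that have a named pseudogene, an alternative added after seeing the data, 225 were left. With 1 CLIP replicate left out, the counts ranged from 951 to 997 higher and from 436 to 485 lower, as the call then needs 1 replicate. With siPKM footprints as the denominator, 724 of the 855 and 323 of the 347 were called again. Of 348 list medians over 12 alternatives, 7 changed sign. The median of messenger RNA binding proteins became -0.11 relative to the median message, -0.16 with TMM factors and -0.18 with stops times the CDS share of RNA, and that of pluripotency genes -0.34, -0.39 and -0.30 in the same settings and -0.11 with sums taken without ribosomal proteins. Of the called single messages examined, Hist1h4h changed sign, to -0.65, when footprints of the whole transcript were used. With a median of 55 and 54 stops, a low value is less precise than a high one. No paired analysis was possible because the RPF group has 1 library and no replicate numbers shared with the CLIP replicates.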

Other observations

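The short descriptions in the deposited table gave groups that do not rest on the gene lists. Messages described as precursors and not as mitochondrial (240), a word used for proteins with a signal peptide that is cut off, had a median of 1.54 stops per footprint (log2). Of these 75 were higher and 7 lower (31.25% and 2.92%, against 13.1% and 5.31% of all messages). Those described as receptors (157) had a median of 1.46, with 54 higher and 4 lower (34.4% and 2.55%), and those described as transmembrane (82) a median of 1.59, with 28 higher (34.1%) and 0 lower. Messages with "mitochondrial" in the description (271) had a median of -0.52, with 5 higher and 27 lower (1.85% and 9.96%). Those described as zinc finger (211) had a median of 1.05, with 37 higher and 2 lower (17.5% and 0.948%). Kinases (298) stood at 0.60 and transcription factors (83) at 0.65, near the 0.36 of all messages. Relative to messages of the same RNA quartile and 3' UTR bin, the precursor, receptor and transmembrane groups stood at 1.03, 0.98 and 0.98. On the same scale the zinc finger group stood at 0.42 and the mitochondrial group at -0.78. Many of these messages are also in the gene lists.

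Among the 9 messages with 0 stops in both replicates, 3 are neighbours on mouse chromosome 1 in the RefSeq gene order of GRCm38.p6. Brox had 426 footprints and 1333 control RNA reads, Mia3 997 and 1283, and Taf1a 368 and 574. The protein-coding gene between Brox and Mia3 in that order had no row in the table. This was noticed in the data and has no test, and its cause was not tested.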
